A study of Mus musculus with 2 samples.

Results

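The data hold 10 genes, of the 32285 in the count tables, grouped here for late red cell maturation, when a precursor loses its nucleus and organelles. Most have products that act in clearance, remodelling or enucleation, and for Tmcc2 no such role is claimed. They are Slfn14, Xpo7, Tmcc2, Trim58, Ube2o, Bnip3l, Foxo3, Ulk1, Map1lc3b and Gabarapl2. The genes were named from a list, and the list was drawn up knowing their levels in these same cells: CPM (the gene's UMIs scaled to 1000000 UMIs in all, with globin UMIs left out of the total) in erythroid cells split by globin share and in globin-rich cells of few UMIs, against stromal cells. A UMI (unique molecular identifier) marks 1 captured RNA molecule within a count table. The levels are therefore a description of the cells, and differences between those groups are given with no test, the main ones with a counting interval.

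Femurs and tibiae of 3 male INK-ATTAC mice aged 24 months, which had received no drug, were digested with their marrow, and live Lin-CD45- cells were collected by FACS. INK-ATTAC is a transgene in which a promoter fragment of the senescence gene Cdkn2a drives a caspase that is switched on by a drug, and every cell here carries it. Red cells had been lysed, cells binding Ter-119 and other lineage antibodies had been removed on magnets, and the mice were pooled before 10x Chromium 3′ capture, and the labels number the 2 deposited count tables as replicates 1 and 2. There is no young, treated or wild-type group.

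The tables, called lanes here, shared 10928 barcodes, with 10968 barcodes and 116827845 UMIs in lane 1 and 11016 barcodes and 120556381 UMIs in lane 2. Over all genes the squared difference between the lanes was 0.559 times the summed counts, less than 2 independent counts would give, and it was 0.494 times for the 10 genes, so the lanes were treated as reads of the same cells and not as biological replicates, summed per barcode, and intervals were computed on their mean. No label names them lanes. Depths per cell and UMI limits are sums over both lanes, in which a molecule read in both can count as 2 UMIs. At least 200 genes and at most 20% mitochondrial UMIs were asked of a cell, which kept 9573 barcodes. Cells were classed by UMIs of marker lists that hold none of the 10 genes. Erythroid cells fell into groups of 1101 cells with a globin share under 0.5%, 485 with 0.5 to 1%, 1284 with 1 to 2.5%, 1332 with 2.5 to 6% and 534 with 6% or more, with median depths of 32628 to 48210 UMIs per cell. The late group holds the 172 low-UMI cells (1.80% of those kept) with globin of 10% or more, at a median of 1735 UMIs. Low-UMI means under 8324 UMIs, the erythroid median (24973) divided by 3. The 2005 stromal cells had a median of 5176 UMIs.

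Late erythroblasts condense and expel the nucleus, and the reticulocyte that remains then destroys its mitochondria, ribosomes and surplus proteins. Mitochondria are taken up by autophagosomes, whose formation starts with the ULK1 kinase and whose membranes carry LC3 and GABARAP proteins of the ATG8 family. BNIP3L (NIX) on the mitochondrial surface binds those proteins. UBE2O and TRIM58 attach ubiquitin, the tag for degradation by the proteasome. XPO7 is a nuclear transport receptor needed for nuclear condensation in erythroblasts, SLFN14 is a ribosome-associated endoribonuclease, and FOXO3 is a transcription factor that acts in late erythroid maturation.

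The erythroid label of the late cells was checked against markers. All 32 erythroid markers had UMIs, summing to 39384 CPM against 1301 CPM in stromal cells, and the erythroid list led in 171 of the 172 cells. The lineage depletion and the red cell lysis can set the share of late cells. Of the stromal list, 17 of 22 markers had UMIs in late cells, summing to 366 CPM against 50991 CPM in stromal cells, and the median late cell had no UMI of the list. No endothelial marker of 12 had a UMI. Plasma cell markers summed to 1419 CPM, with 6 of 9 present, against 401 CPM in stromal cells, 93.3 CPM in deep erythroid cells with globin of 6% or more and 346730 CPM in plasma cells. The late cells were poor in mitochondrial RNA, with a median of 0.382% of UMIs against 2.75% in erythroid cells with globin of 6% or more, and rich in the nuclear RNA Malat1, at 108738 CPM against 5095 CPM. The part of any of these in the levels of the 10 genes was not tested.

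Promoter windows from RefSeq (GRCm38.p6), running from 250 bases before to 50 after a transcript start, were on hand for 7 of the 10 genes, in 9 windows. They are shown for the 3 genes whose windows hold a GATA motif, the site of the erythroid factor GATA1, spelled AGATAA, searched also as AGATAG, and with the other first letter as TGATAA and likewise as TGATAG, on either strand. Capitals mark the matches in the lines that follow, each written from 5′ to 3′ along the gene's strand.
Slfn14, chr11:83286677-83286976, minus strand: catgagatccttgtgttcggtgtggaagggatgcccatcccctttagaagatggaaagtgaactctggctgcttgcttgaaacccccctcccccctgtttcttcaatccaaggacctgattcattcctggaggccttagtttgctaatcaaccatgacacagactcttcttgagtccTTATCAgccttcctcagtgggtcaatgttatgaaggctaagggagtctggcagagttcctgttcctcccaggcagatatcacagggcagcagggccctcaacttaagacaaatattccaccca
Tmcc2, chr1:132367899-132368198, minus strand: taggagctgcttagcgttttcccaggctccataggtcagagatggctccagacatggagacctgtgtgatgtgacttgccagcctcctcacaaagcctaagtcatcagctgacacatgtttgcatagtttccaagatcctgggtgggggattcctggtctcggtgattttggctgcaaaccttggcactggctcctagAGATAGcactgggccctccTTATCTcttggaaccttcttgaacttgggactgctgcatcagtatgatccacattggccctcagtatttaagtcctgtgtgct
Trim58, chr11:58640215-58640514, plus strand: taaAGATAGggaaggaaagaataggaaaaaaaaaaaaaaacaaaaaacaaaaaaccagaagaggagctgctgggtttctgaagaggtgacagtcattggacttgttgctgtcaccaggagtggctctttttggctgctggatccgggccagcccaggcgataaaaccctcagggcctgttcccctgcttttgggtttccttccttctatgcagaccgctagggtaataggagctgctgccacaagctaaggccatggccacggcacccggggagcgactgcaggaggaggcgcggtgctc
The Slfn14 match begins 73 bases before the start. Tmcc2 has matches 52 and 33 bases before the start of the innermost of its 3 listed starts, and none in the windows of the other two. The Trim58 match lies far out, 247 bases before the start. Among all 32851 windows 29.8% held such a motif, against 3 of the 9 windows here, so the share is near the background. The CACCC-type motif CCNCNCCC of Krüppel-like factors was in 7 of the 9 windows and in 49.5% of all windows, and the 7 had GC contents of 50 to 75% against a median of 52.7% in all windows. GTAAACA, a FOXO motif, was in none of the 9 and in 3.65% of all. These windows were not measured in the cells, and a match is a string of letters only.

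In late cells Slfn14, Xpo7 and Tmcc2 stood at levels of another order than in stromal or deep erythroid cells, deep meaning not low-UMI. Slfn14 reached 5305 CPM in lane 1 and 5048 CPM in lane 2, or 5174 CPM for both together (95% exact Poisson interval 4807 to 5562). In erythroid cells with globin of 6% or more it was at 5.29 and 5.13 CPM in the lanes, and in stromal cells at 2.5 and 3.45 CPM. Both lanes of the late group lay far above both lanes of these other groups, but the lanes are reads of the same cells and no replicates. The ratio to stromal cells was 1734 (1076 to 2993), the highest of the 11606 genes compared. The ratio to the globin-rich deep cells was 993 (735 to 1374), the highest of 8255. Against deep cells with globin of 10% or more it was 328 (227 to 492), at rank 3. Slfn14 was chosen on such levels, so the ranks are a description only. Over the alternatives the log2 ratio to stromal cells, 10.76, ran from 9.82 to 14.5. Slfn14 is a gene of 1 annotated transcript at chr11:83275110-83286726 (GRCm38, minus strand), and overlaps no other annotated gene.

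Xpo7 (chr14:70654246-70766628, minus strand) was at 8427 and 8070 CPM in the late lanes. Its level in deep erythroid cells with globin of 6% or more was 10.1 and 8.21 CPM. Stromal cells gave 43.4 and 40.0 CPM, more than the deep erythroid groups did. The stromal UMIs were spread over 284 of 2005 cells. Late cells exceeded the stromal level 198-fold (172 to 228) and that of the deep globin-rich cells 901-fold (717 to 1147). Npm2 overlaps Xpo7 on the same strand, and reads in shared bases cannot be told apart.

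Tmcc2 encodes a coiled-coil protein with transmembrane segments (chr1:132356315-132391281, minus strand). It stood at 10645 and 11154 CPM in the late lanes, at 32.6 and 32.0 CPM in the deep cells with globin of 6% or more, and at 13.9 and 16.1 CPM in stromal cells. The late level was 727 times the stromal one (584 to 914) and 338 times that of the deep globin-rich cells (297 to 385). Tmcc2 also climbed through the deep groups, from 6.15 CPM at globin under 0.5% through 12.8, 16.5 and 20.6 to 32.3 CPM. Each of these neighbouring intervals was clear of the next except those at 0.5 to 1% and 1 to 2.5%, which met between 15.0 and 15.2 CPM.

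**Figure D1:**
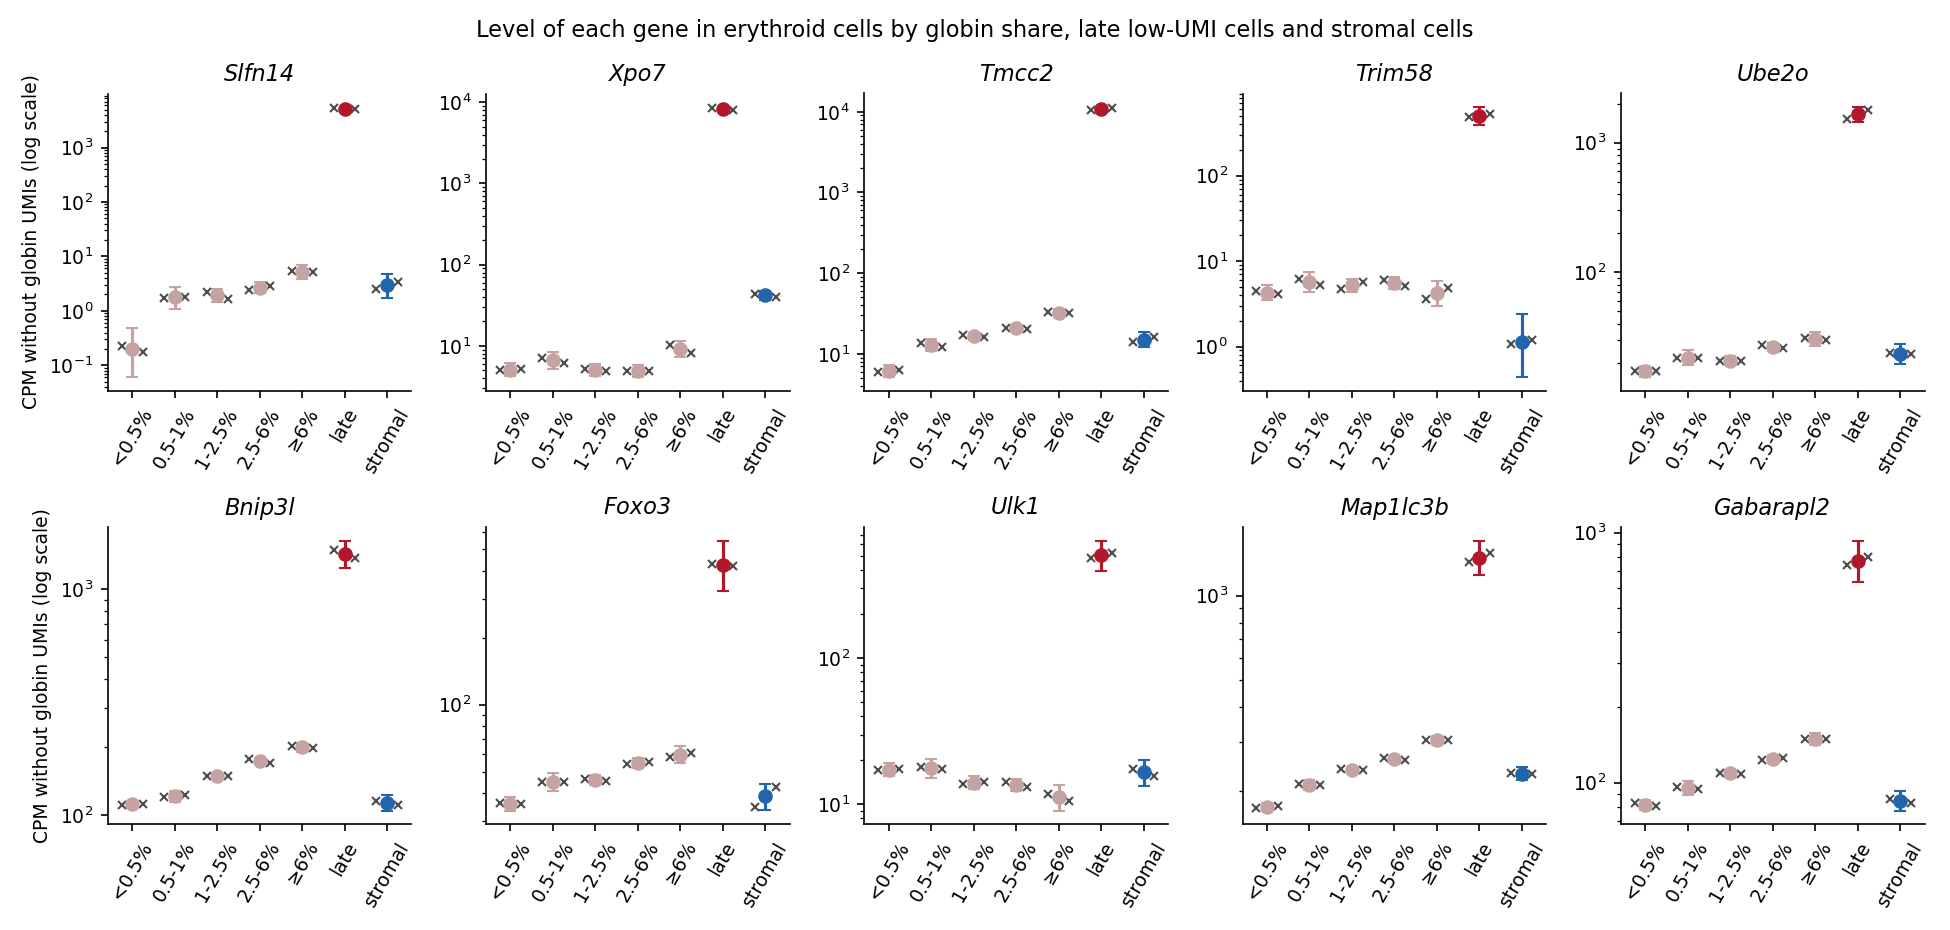
CPM of each gene (log axis, globin UMIs left out of totals) in 5 erythroid groups by globin share, in late low-UMI cells and in stromal cells; circles with bars are both lanes with the exact 95% Poisson interval and crosses the single lanes. For every gene the late group stands highest, from 426 CPM for Foxo3 to 10904 CPM for Tmcc2.

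Slfn14, Xpo7 and Tmcc2 together made up 2.43% of the summed non-globin UMIs of late cells and 0.00467% of those of deep erythroid cells with globin of 6% or more. For all 10 genes the shares were 3.10% and 0.0807%. A UMI of each of the 3 was found in 153 of the 172 late cells (89.0%). In 10 cells only 1 or 2 of them were seen, and 9 cells had none. Late cells with none were deeper, at a median of 5167 UMIs against 1717, and had little Malat1, at 4819 CPM against 127709 CPM in cells with all 3. In the 10 intermediate cells Malat1 was at 34959 CPM and the noncoding RNA Gm26917, named after its value was seen, at 23323 CPM against 1076 CPM in cells with all 3. Over single late cells the 3 genes took between 0 and 7.22% of non-globin UMIs, with a median of 2.68%.

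**Figure D2:**
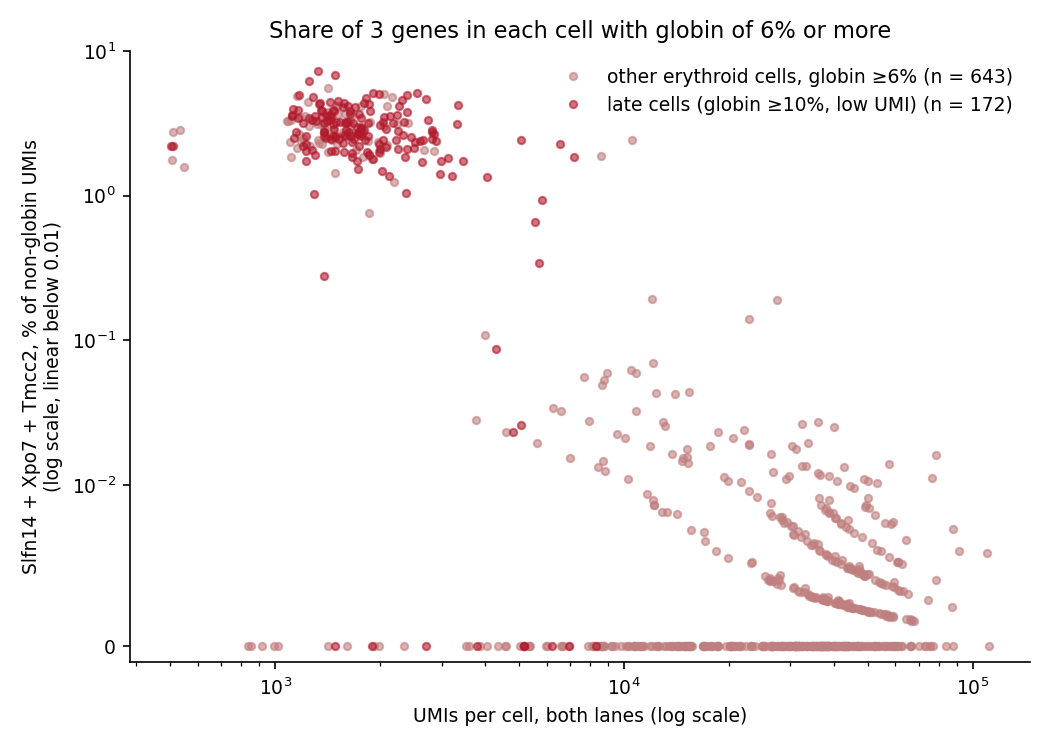
UMIs per cell (log axis) against the share of Slfn14, Xpo7 and Tmcc2 among the cell's non-globin UMIs (log axis, linear below 0.01) in the 815 cells with globin of 6% or more, late cells in dark red and other erythroid cells in light red. Most late cells lie around the median of 2.68% and most cells of high UMI count near 0, while many of the 109 low-UMI cells with globin of 6 to 10%, drawn among the other erythroid cells, lie at shares like those of late cells.

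Trim58 and Ube2o attach ubiquitin. Trim58, the ligase that targets the motor protein dynein before enucleation, is encoded at chr11:58640465-58652404, plus strand. Its level was 481 and 526 CPM in the late lanes and 3.64 and 4.79 CPM in the deep cells with globin of 6% or more. In the 5 deep groups it kept between 4.23 and 5.72 CPM, with overlapping intervals, and in stromal cells it was at 1.14 CPM (0.440 to 2.41), from 13 UMIs in 7 cells over both lanes. Late cells were 442-fold above stromal cells, with a wide interval (199 to 1186). Ube2o, an enzyme that both loads ubiquitin and picks substrates such as unassembled ribosomal proteins, is encoded at chr11:116537740-116581447, minus strand. It was at 1515 and 1791 CPM in the late lanes, at 31.3 and 30.0 CPM in the globin-rich deep cells and at 23.7 and 23.3 CPM in stromal cells. The late to stromal ratio of Ube2o was 70.4 (56.7 to 87.7).

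The mitophagy receptor gene Bnip3l and the ATG8 genes had UMIs in every group, and their late levels stood apart by less. Bnip3l (chr14:66985239-67008877, minus strand) was at 1500 and 1369 CPM in the late lanes against 202 and 199 CPM in deep cells with globin of 6% or more. Both groups exceeded the stromal Bnip3l levels of 116 and 111 CPM, the late cells by 12.6-fold (10.7 to 14.8). Map1lc3b, which encodes LC3B (chr8:121590361-121598760, plus strand), was at 1314 and 1418 CPM in late cells, 305 CPM in both lanes of the globin-rich deep cells and 232 and 231 CPM in stromal cells. It overlaps Gm20388 on the same strand, and its ratio of late to stromal cells, 5.90 (5.05 to 6.87), was the lowest of the 10. Gabarapl2, the other ATG8 gene here (chr8:111940703-111953612, plus strand), stood at 739 and 802 CPM, 150 CPM in each lane of the globin-rich deep cells and 86.4 and 83.2 CPM in stromal cells, a late to stromal ratio of 9.10 (7.33 to 11.2).

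Ulk1 (chr5:110784488-110810097, minus strand), the kinase gene, was the one of the 10 with an interval below 1 between the deep ends, 0.649 (0.513 to 0.813). It was at 17.2 CPM (15.5 to 19.0) under 0.5% globin and at 11.2 CPM (9.06 to 13.6) at 6% or more, and stromal cells had 16.5 CPM. Late cells stood far above both, with 488 and 526 CPM in the lanes and a ratio to the deep globin-rich cells of 45.4 (33.0 to 62.2). Foxo3 (chr10:42181841-42276755, minus strand) stood at 431 and 422 CPM in late cells. Its deep levels went from 35.8 CPM under 0.5% globin to 59.6 CPM at 6% or more, and stromal cells had 34.5 and 42.6 CPM.

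Counted together, 10 of the 10 genes were at least 2-fold higher in late than in stromal cells with an interval off 1, as were 8.66% of the 11606 genes compared. The median log2 ratio was 5.54 for the 10 genes and -0.29 for all. Against the earliest erythroid cells, with globin under 0.5%, again 10 of 10 were higher, beside 9.26% of 10185 genes, and against deep cells with globin of 6% or more 10 of 10 beside 10.3% of 8255. The genes were chosen on these levels, so nothing is read from those shares. At globin of 6% or more 2 of 10, Tmcc2 and Trim58, were at least 2-fold above stromal cells, beside 16.2% of 12330 genes, a share near the background, and Xpo7 was at 0.219 times the stromal level (0.168 to 0.284), while 53.2% of the genes were at least 2-fold lower. With CPM averaged over cells the Xpo7 log2 ratio was 0.22 in place of -2.19. That count of 2 ran from 1 to 5 over the alternatives. Between the deep ends, 6% or more against under 0.5%, Slfn14 (25.7-fold, 9.83 to 89.6) and Tmcc2 (5.25-fold, 4.27 to 6.50) were 2 of 10 called higher, beside 5.45% of 10455 genes. Xpo7, Ube2o, Bnip3l, Foxo3, Map1lc3b and Gabarapl2 were above 1 there but short of 2-fold, at 1.66 to 1.83 times. The Xpo7 ratio was not stable: 3 cells held 44.9% of its UMIs at globin of 6% or more, and its log2 ratio of 0.84 was 0.06 with at most 10% mitochondrial UMIs and 3.37 with CPM averaged over cells. With CPM so averaged the count of 2 became 7. The Slfn14 ratio between the deep ends rests on 9 UMIs over both lanes, in 7 of the 1101 cells under 0.5% globin (0.203 CPM). At globin of 6% or more, 9 of 534 cells held 51.1% of its UMIs, a spread that the counting interval does not cover.

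CPM rises when other RNA falls, so the UMIs per cell were set beside it. A late cell held 825 non-globin UMIs per lane on average and a deep cell with globin of 6% or more 16174, a difference of 19.6-fold. Even so, 6 of the genes had more UMIs per late cell. Slfn14 had 4.27 UMIs per late cell against 0.0843, or 50.7 times as many (37.5 to 70.1). Xpo7 had 6.81 against 0.148, 46.0 times as many (36.6 to 58.5). For Tmcc2 there were 9 against 0.522, 17.2 times as many (15.2 to 19.6).

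Smaller excesses per cell were counted for Trim58 (6.08-fold, 4.03 to 9.33), Ube2o (2.76-fold, 2.30 to 3.30) and Ulk1 (2.32-fold, 1.68 to 3.18). The other 4 had fewer UMIs per late cell, at 0.365 times the deep value for Bnip3l (0.314 to 0.422), 0.365 for Foxo3 (0.275 to 0.477), 0.263 for Gabarapl2 (0.214 to 0.320) and 0.229 for Map1lc3b (0.197 to 0.265). All 4 differences were smaller than that of all non-globin UMIs. Of genes outside the list, the nuclear RNA Neat1 was also higher per late cell, at 3.23 UMIs against 0.799, or 4.04-fold (3.56 to 4.598). Malat1 was nearly level at 89.7 UMIs per late cell against 82.4, the erythroid factor Klf1 was 54.2-fold lower per cell and the actin gene Actb 68.2-fold lower. The 150 deep cells that share the late group's globin limit of 10% were compared too. The same 6 genes were higher per late cell than there (2.42- to 21.7-fold) and the same 4 lower, again with no count over all genes.

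**Figure D3:**
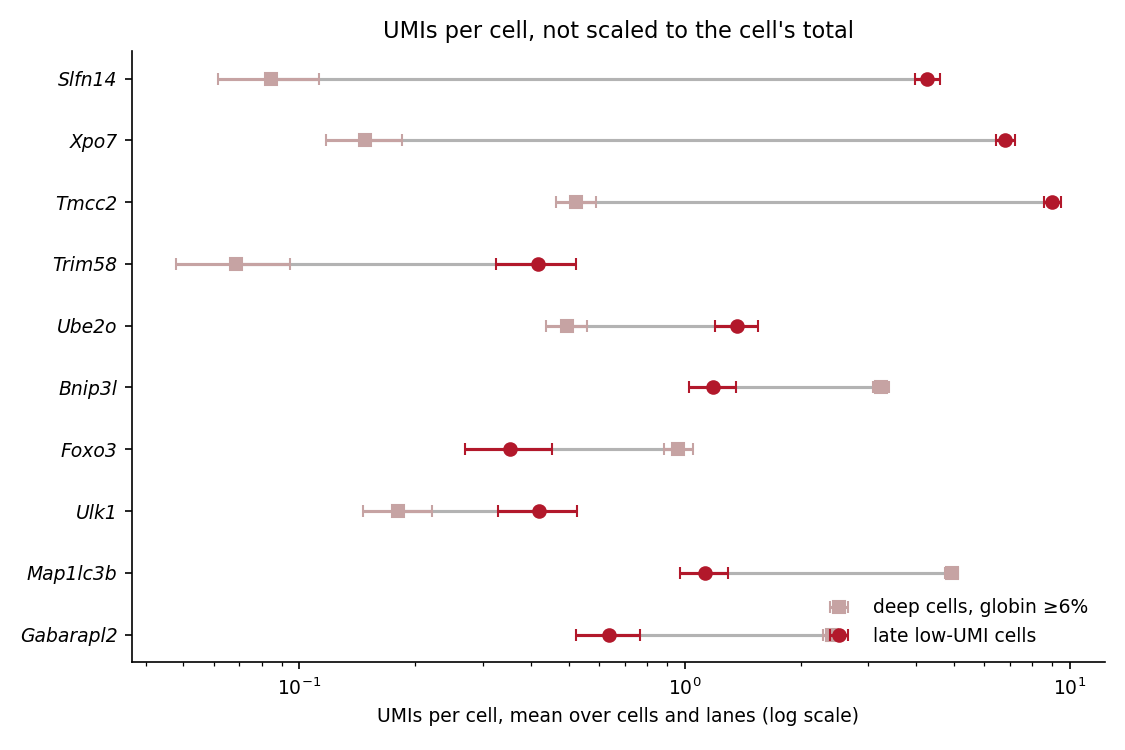
UMIs per cell of each gene (log axis, mean of the lanes, bars are exact 95% Poisson intervals) in the 172 late cells (circles) and the 534 deep erythroid cells with globin of 6% or more (squares). The late value lies to the right for 6 genes, by 50.7 times for Slfn14, and to the left for Bnip3l, Foxo3, Map1lc3b and Gabarapl2. The share of all genes with more UMIs per late cell was not counted.

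After every cell was thinned to 1000 UMIs, each of the 10 genes was seen in a larger share of late cells than of stromal cells or of deep cells with globin of 6% or more. Thinning left out 2 late and 2 stromal cells. Slfn14 was seen in 85.9% of late cells (exact interval 79.7 to 90.7), 0.375% of deep cells with globin of 6% or more and 4 of 2003 stromal cells. Xpo7 was seen in 90.6%, 0.749% and 3.99%, and Tmcc2 in 93.5%, 3.75% and 1.35%. Unthinned, these 3 were in 89.5%, 91.9% and 94.8% of late cells. Free RNA can give such UMIs in cells that do not express a gene, and no class here is known to lack all 10 genes, so no background was set from it. Slfn14 was seen in 1.94% of megakaryocyte cells (2 of 103) and 2.38% of endothelial cells (1 of 42), and the low-UMI cells of lower globin were not thinned. Of the other genes, thinned late shares ran from 22.4% for Foxo3 to 70% for Ube2o.

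**Figure D4:**
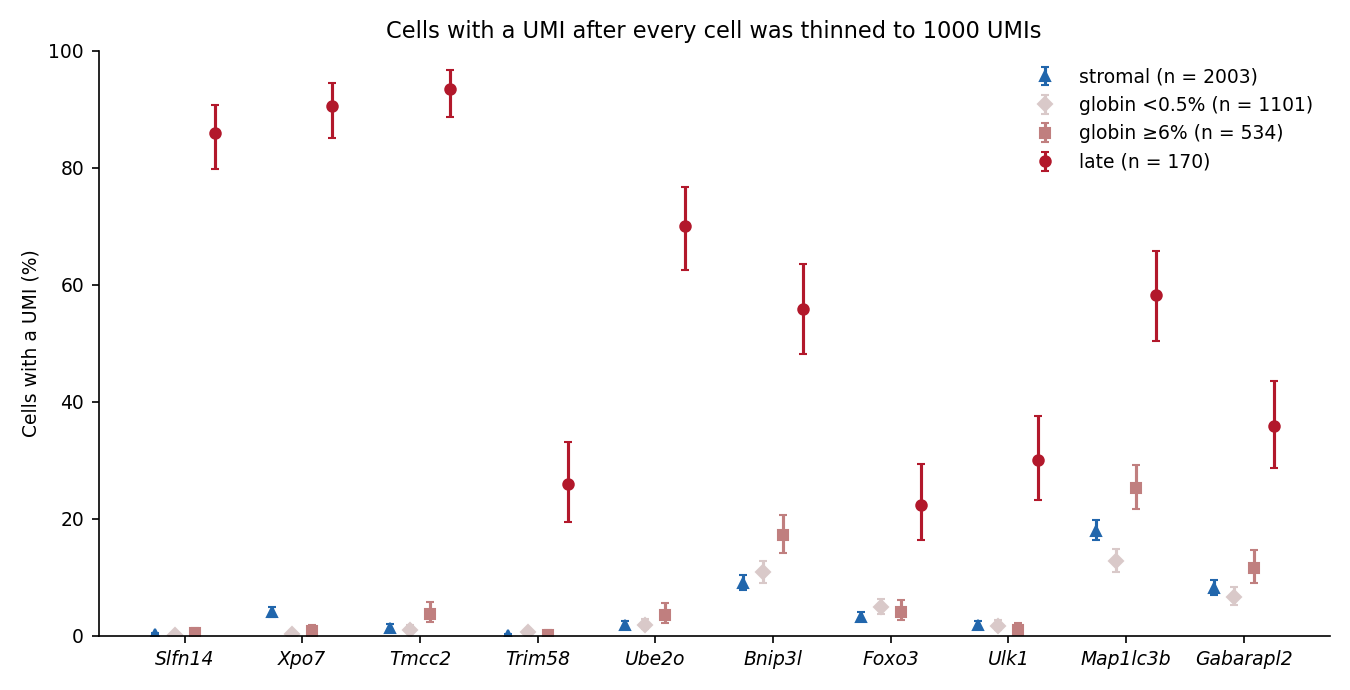
Percent of cells with a UMI of each gene after thinning to 1000 UMIs, in stromal cells, deep erythroid cells with globin under 0.5% or of 6% or more, and late cells, with exact 95% binomial intervals. Late cells stand above the rest for all 10 genes, from 22.4% for Foxo3 to 93.5% for Tmcc2.

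In stromal, endothelial and deep erythroid cells Slfn14 sat in few cells, whereas it was seen in 68 of the 109 low-UMI cells with globin of 6 to 10%. Its 34 stromal UMIs over both lanes came from 6 of 2005 cells, and 3 of these held 91.2% of them and had Xpo7 and Tmcc2 too. All 13 UMIs of the 42 endothelial cells were in 1 cell. Among the 534 deep cells with globin of 6% or more, 9 cells with at least 3 Slfn14 UMIs held 51.1% of the group's Slfn14 and 46.2% of its Xpo7, but 15.1% of its Tmcc2. Per 1000 UMIs of the globin Hbb-bs there were 32.0 of Slfn14 in late cells, 5.05 in stromal cells and 0.113 in the globin-rich deep cells. The ratio was 36.8 in megakaryocyte cells, 50.8 in endothelial cells (from the 1 cell) and 49.7 in low-UMI cells with globin of 6 to 10%. It thus lay near the late value in some groups and far below it in others. Scrublet marked 186 of the kept cells as doublets, and the part of doublets in the few high cells was not tested.

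Among low-UMI cells the levels, taken as ratios between neighbouring bins, differed most at globin shares of 2.5 to 6% and 6 to 10%. Slfn14 was at 1.5 CPM in the 824 low-UMI erythroid cells with globin under 0.5%, then at 4.55, 10.7, 86.0 and 2023 CPM in the next 4 bins, and at 5388 and 4664 CPM at 10 to 20% and 20% or more. Xpo7 went the same way, from 4.76 CPM to 208 CPM at 2.5 to 6% and 3171 CPM at 6 to 10%. Low-UMI cells with little globin thus had low levels. Median depth moved along, though, from 5854 UMIs in the 223 cells at 2.5 to 6% to 1765 in the 109 at 6 to 10%. Ulk1 was at 20.4 CPM at 2.5 to 6% and 234 CPM at 6 to 10%. Map1lc3b and Gabarapl2 differed again above 10% globin, Map1lc3b from 1046 CPM (855 to 1266) at 10 to 20% to 2130 CPM (1711 to 2619) at 20% or more and Gabarapl2 from 580 to 1225 CPM. The other 8 genes had overlapping intervals in those last bins, apart from Ube2o, whose bounds of 1740 and 1658 CPM overlapped only narrowly.

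**Figure D5:**
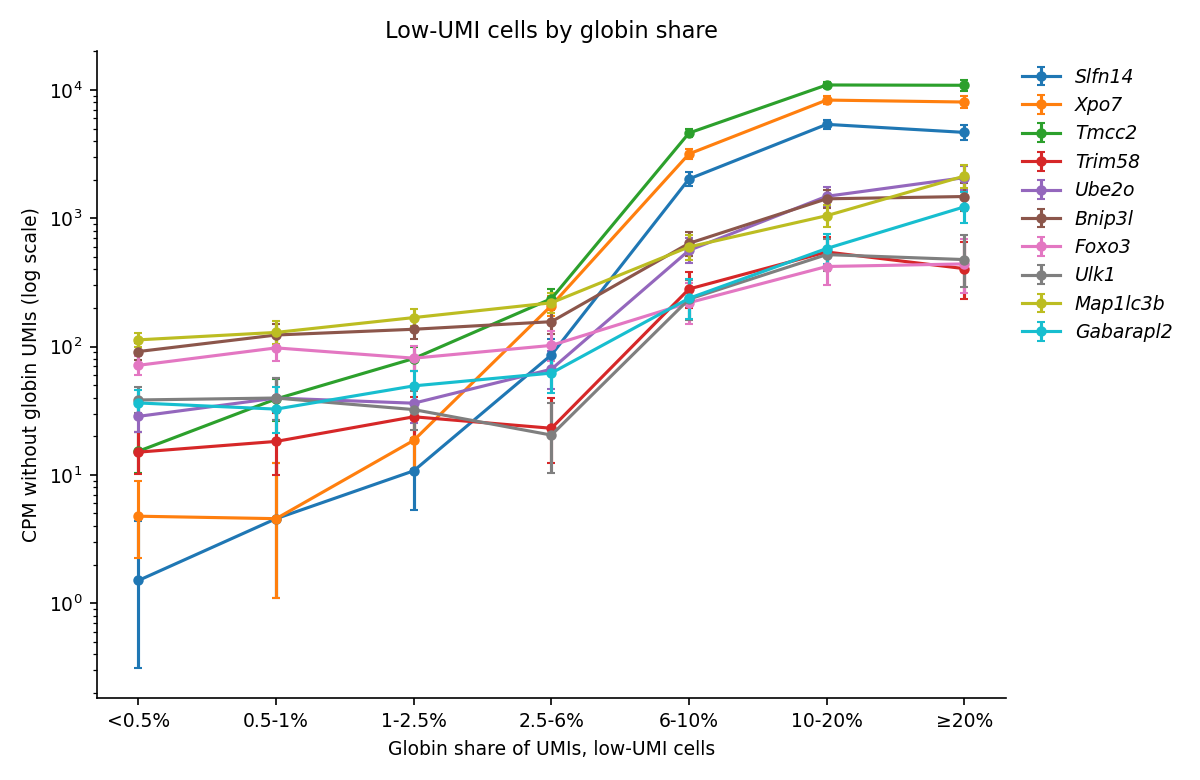
CPM of each gene (log axis, exact 95% Poisson intervals) in low-UMI cells in 7 bins of globin share. Slfn14 goes from 1.5 CPM in the first bin to 5388 CPM at 10 to 20% globin, and Map1lc3b from 113 CPM to 1046 CPM.

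Depth and globin together set the edges of the group. Just outside the globin limit, 52 low-UMI cells at 8 to 10% had Slfn14 at 2841 CPM, and just inside it 40 cells at 10 to 12% had 4730 CPM. At the UMI limit, 14 cells from 0.5 times the limit up to it had 755 CPM and 20 cells from it up to 1.5 times the limit 149 CPM. Within globin of 10% or more, Slfn14 was at 10.1 CPM in the 116 cells of 15000 UMIs or more, at 90.6 CPM in the 34 cells from the limit to 15000, at 2888 CPM in the 37 late cells of 2500 or more, at 6584 CPM at 1500 to 2500 and at 6031 CPM under 1500. Map1lc3b and Gabarapl2 went the other way inside the late group, from 1636 through 1320 to 1029 CPM and from 969 through 685 to 627 CPM as UMIs went down, and Foxo3 was at 475, 399 and 402 CPM, each with overlapping intervals. The plasma cell markers summed to 596, 1858 and 1866 CPM in the same 3 sets of late cells.

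Of the close relatives of the 10 genes, Gabarapl1 and Foxo4 were called higher in late than in stromal cells, a share near the 8.66% of all genes. Of the 3 other ATG8 genes tested, 1 was called higher in late than in stromal cells, Gabarapl1 (2.34-fold), and Map1lc3a, without a UMI in late cells, was at least 5.37-fold lower (3 counts over the group). Ulk2, an autophagy kinase, had 1 UMI in late cells, a log2 ratio of -3.80 (-13.80 to -0.56), and Ulk3 had none. Tmcc1 also had 1 UMI (log2 ratio -4.32, -14.31 to -1.08), and Tmcc3 had none. None of the 6 other exportins was called higher, and Xpo6, with 1 UMI, was called lower (log2 ratio -3.32, -13.32 to -0.08). Among Schlafen genes Slfn5 was at least 8.16-fold lower, and 4 of the 5 other Schlafen genes tested had no UMI in late cells. Bnip3, the paralogue of Bnip3l, had none either. Foxo4 was 7.19-fold higher and Foxo1 had no UMI in late cells. At 0 UMIs, a late level of up to 21.1 CPM is allowed.

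Wider pathway lists were counted without the 10 genes, and differences between the lists were not tested. The lists were drawn up with earlier results of these data known. The counts and medians therefore describe the cells, and nothing is read from them beside those of all genes. Of 27 further ubiquitin genes of erythroid cells 17 were called higher and 2 lower in late than in stromal cells, with a median log2 ratio of 2.44 beside -0.29 for all genes tested, of which 8.66% were called higher and 21.1% lower. Trim10, a ligase relative of Trim58, was 288-fold higher and Ranbp10, a subunit of the CTLH ligase, 75.7-fold, while its paralogue Ranbp9 was 4.50-fold lower. Of 15 mitophagy and autophagy receptors 8 were higher and none lower (median 1.45), led by Ncoa4, the receptor for ferritin, at 12.8-fold and Calcoco1 at 7.89-fold. Fundc1, a mitophagy receptor, was at 3.52 CPM (1 UMI) against 25.3 CPM, not called.

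Among 33 genes of the autophagy machinery 10 were higher and 4 lower. Their median log2 ratio was 0.66 with the 6 genes without UMIs in late cells at their bound and -0.31 with those ranked lowest, so it has no settled sign. Atg4a, a protease that primes ATG8 proteins, was 30.3-fold higher and Atg9a, a lipid scramblase of the autophagosome, 16.2-fold. Lamp2, a lysosomal membrane protein, was called lower on 3 UMIs (log2 ratio -5.34, -9.14 to -3.25). Of 30 genes of enucleation and nuclear condensation 10 were higher and 12 lower (median -0.64), with E2f2, a cell cycle factor, 96.7-fold and the actin-capping gene Tmod1 78.0-fold higher. The intermediate filament gene Vim was called lower on 1 UMI (log2 ratio -7.38, -17.37 to -4.15). Of 15 FOXO3 partners and antioxidant genes 6 were higher and 4 lower (median 0.52). Gpx1, a peroxidase, was 25.2-fold and the cell cycle inhibitor Cdkn1b 22.3-fold higher, and Sesn3 was called lower on 1 UMI (log2 ratio -3.96, -13.95 to -0.72). Of 6 nuclear-retained RNAs 2 were higher, Neat1 at 6.96-fold and Gas5 at 2.03-fold, and 2 lower, with Snhg11 at least 14.9-fold lower. Their median log2 ratio was 0.35 with the 2 genes without UMIs in late cells at their bound and -1.29 with those ranked lowest. It too has no settled sign.

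Against deep erythroid cells with globin of 6% or more, which share the lineage, the counts were 13 higher and 4 lower of 26 ubiquitin genes, 12 and 1 of 30 autophagy genes, 6 and 4 of 13 receptors, 5 and 7 of 27 enucleation genes, 9 and 1 of 14 FOXO3 partners and 2 and 1 of 4 nuclear-retained RNAs (median log2 ratio 2.30). Of all 8255 genes 10.3% were called higher and 18% lower there, with a median log2 ratio of -0.33. Calcoco1 was 106-fold, Cdkn1b 40.0-fold, Atg9a 27.0-fold, Ranbp10 18.9-fold, Ncoa4 10.1-fold and Trim10 10.0-fold higher in late cells. Trim10 was thus already high in the deep cells, at 198 CPM, whereas Trim58 was at 4.23 CPM.

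Over the 7 groups, Pearson's r of log2(CPM + 1) among 11373 genes described which patterns were most alike, where the 7 points share lanes and the late group carries most of the spread. Slfn14 was nearest to Tmcc2 (r = 0.999), then to Adipor1 and Abtb1. Tmcc2 was nearest to Rab43, Atp6v0a1 and Ppp1r15a, and Xpo7 to Ccnl2, Zrsr1 and 1810013L24Rik. Bnip3l and Gabarapl2 named each other (r = 0.999), both with Pim1, a kinase gene, beside Gadd45a for Bnip3l and Cd36 for Gabarapl2. Map1lc3b went with Zfand6, Atp6v0a1 and Add1, and Foxo3 with B3gat2, Akirin2 and Mxd1. Trim58 went with Becn1, Slc48a1 and Fbxo9, Ube2o with Fbxw2, Pkn2 and Arel1, and Ulk1 with Slc15a2, Dcaf8 and Ube2f. Within the list r ran from 0.885 between Xpo7 and Trim58 to 0.999.

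In the remaining classes the 10 genes were below their late levels. Megakaryocyte cells (105) had Trim58 at 10.5 CPM (5.14 to 19.0) in 15 cells, above the stromal level of 1.14 CPM, and Bnip3l at 161 CPM. In 51 plasma cells Slfn14 had 1 UMI, and Map1lc3b stood at 223 CPM. Endothelial cells (42) had no Trim58, which at their depth allows up to 36.7 CPM for a count of 3. Of the late ratios to these 3 classes the lowest was 4.50 (2.57 to 8.50), for Gabarapl2 over endothelial cells.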

How the data were processed

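The files deposited by the authors are UMI counts, 1 matrix of genes by called cell barcodes for either replicate (called lanes here), not normalized. The submitters' processing notes name mm10, Cell Ranger, R 4.0.3 and Seurat 4.0, and the matrix headers name software 3.0.2. Of 32285 gene IDs, 32235 were in GENCODE M21 of GRCm38 (the assembly that mm10 names), used for positions only. Lanes were summed per barcode. Cells needed at least 200 genes and at most 20% mitochondrial UMIs. A cell took the class of the leading marker list at 80% or more of marker UMIs and at least 5 UMIs (10, and no minimum share, for endothelial, megakaryocyte and plasma cells), a scoring rule chosen after the data had been seen. The members and lists were chosen with earlier results of these data known. CPM left out the 10 globin genes. Genes with at least 20 lane-mean UMIs over both groups entered a comparison. Higher means a ratio of at least 2 with its exact conditional binomial 95% interval off 1, and a count of 0 was set to 3. Doublets stayed in; Scrublet (scanpy 1.11.5, expected rate 8%) marked 186 cells (1.94%). Python 3.11.15, scipy 1.17.1, and for the cluster alternative Seurat 5.3.0 in R 4.3.3 (sctransform 0.4.2, 30 components, resolution 0.8) were used. The ratio function was tested on simulated counts. Intervals and limits cover counting error only, and with 1 pool there is no p-value. Beyond the 10 genes, each list is illustrated by up to 2 genes with the largest and the 1 with the smallest late to stromal ratio, and each gene by its 3 most alike genes (at least 100 UMIs).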

Additional observations from a re-analysis of the deposited data

Results flagged for a closer look

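The 1483 barcodes left out of all groups, 1144 of them for over 20% mitochondrial UMIs and 339 for under 200 genes, also held UMIs of all 10 genes, above the 1.15 CPM that a count of 0 allows. Slfn14 was at 19.2 CPM there, Xpo7 at 32.8 CPM and Tmcc2 at 64.0 CPM. Trim58 stood at 7.28 CPM, Ube2o at 24.0 CPM and Ulk1 at 22.0 CPM. Bnip3l was at 59.98 CPM, Foxo3 at 45.8 CPM, Map1lc3b at 70.9 CPM and Gabarapl2 at 31.4 CPM. The Slfn14 UMIs, 57 in lane 1 and 43 in lane 2, all came from the barcodes over 20% mitochondrial UMIs, and 1 of the 1483 barcodes had globin of 10% or more.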

How the results depend on the processing

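No paired analysis was possible because both lanes belong to 1 group and the values come from no test. The counts of 10 of 10 genes higher in late cells, over stromal and over the earliest erythroid cells, were 10 under each of the 13 alternatives, which says nothing of stability, since the genes were chosen on these levels and lie far above the 2-fold limit. The count of 2 genes higher in deep cells with globin of 6% or more than in stromal cells was 3 with lane 1 alone and 1 with lane 2 alone. It was 1 with globin UMIs kept in totals, with at most 10% mitochondrial UMIs, with classes from Seurat clusters, with a low-UMI limit at the erythroid median divided by 2 and with a marker share of at least 60% (an alternative added after seeing the data), and 5 with CPM averaged over cells. That mean, which weights shallow cells up, also raised the count over the earliest cells from 2 to 7, and took the log2 ratio of Xpo7 in the deep globin-rich over stromal cells to 0.22 from -2.19. Slfn14 in the same comparison went to -0.17 from 0.80 with classes from Seurat clusters, with intervals that include 0 in both. Of 520 recomputed log2 ratios 451 stayed inside the counting interval of the first value. The sign changed outside that interval for the Xpo7 and Slfn14 values just given, and inside it for Trim58 between the deep ends, which ran from -0.36 to 0.19. In late over stromal cells the log2 ratio of Slfn14 ran from 9.82 to 14.5, that of Map1lc3b from 2.18 to 3.20. Thinning to 1000 UMIs put the share of late cells with a UMI outside its counting interval for 7 of the 10 genes, all downward (Trim58 from 40.1% to 25.9%), and thinning to 2000 UMIs for 4. Shares after thinning to 2000 UMIs rest on 60 of the 172 late cells, with Slfn14 in 76.7% of them. Depth limits the late values: 1 UMI in all late cells and lanes is worth 3.52 CPM. At 172 cells of 1 pool the spread between mice is unknown.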
